A study of Mus musculus with 19 samples.

Results

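Legumain, 7 cathepsins and 2 inhibitors of cysteine proteases were followed across 4 groups of regulatory T cells (Tregs). The count table lists them in capitals as LGMN, CTSB, CTSC, CTSD, CTSL, CTSS, CTSW, CTSZ, CTLA2A and CST3. They were taken by symbol from 24982 genes, and all 10 were found and passed the filter on low counts, which 11464 genes passed. The symbols were chosen by role and with the measured differences between these groups known, and no record says which contrast guided the choice. The members' own differences and their p-values are therefore given as a description of where they stand among all genes.

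The cells were CD4+FoxP3-GFP+ T cells from the axillary, brachial and inguinal lymph nodes that drain the injury site of Foxp3DTR mice. In this strain the Foxp3 locus drives a fusion of GFP with the diphtheria toxin receptor, so that every group, controls included, carried the same allele, and GFP marks cells that use the Foxp3 promoter. Mice 8 to 16 weeks old received a scald burn over 20% of the body surface (a 90 °C water bath for 9 s) or a sham procedure with water at room temperature. At 7 days, CD44high and CD44low Tregs were sorted, 50000 cells a sample. The 19 libraries comprised 4 of CD44high Tregs and 5 of CD44low Tregs from sham mice (uninjured), and 4 of CD44high and 6 of CD44low Tregs from burned mice (injured). The labels do not say whether a sample pooled several mice or whether libraries of a group came from separate animals, so that p-values measure only the spread between these samples, which may be technical.

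Libraries held 5582234 to 9433610 counts (median 6723163). Cd44 itself separated the sorted subsets, with mean levels of 595 CPM (counts scaled to a common library total) in CD44high and 133 CPM in CD44low Tregs of sham mice. Mean levels of Foxp3 were 70.7 to 115 CPM and of the T cell receptor gene Cd3e 1371 to 1463 CPM in the 4 groups. Of the 6 injured CD44low libraries, 3 are numbered doubly (1_2, 4_2 and 5_2), and what the added number stands for is not explained in the labels. Several results are also given without them or with them as the only injured CD44low libraries.

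Lysosomes break down proteins with a set of acid proteases. Most cathepsins (B, C, L, S, W and Z) are papain-like cysteine proteases, cathepsin D is an aspartic protease, and legumain, the asparaginyl endopeptidase, cuts after asparagine and trims the chains of several cathepsins. In antigen-presenting cells these enzymes process antigen and the invariant chain of MHC class II, and in cytotoxic cells cathepsin C removes the propeptides of granzymes. Cystatin C (Cst3) is a secreted inhibitor that blocks papain-like cathepsins and legumain through separate sites. CTLA-2α (Ctla2a) resembles the propeptide of cathepsin L, inhibits that enzyme and was first described in activated T cells.

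Per kilobase of the principal transcript, Ctss was the highest member in all 4 groups, with mean levels of 365, 350, 366 and 416 CPM per kb in CD44high sham, CD44low sham, CD44high burn and CD44low burn Tregs. Ctsd came next in each group, at 258, 232, 241 and 273 CPM per kb. The lower end of the order depended on the subset. Lgmn stood at 51.5 and 64.4 CPM per kb in CD44high Tregs of sham and burned mice, but at 6.59 and 13.9 CPM per kb in CD44low Tregs. Ctsl was at 1.88 to 2.55 CPM per kb in the 4 groups over a principal transcript of 6168 bases, in the last place but in CD44low sham Tregs, where Ctla2a stood below it. It was also the lowest member in both CD44high groups before division by length, at 14.3 and 11.6 CPM. In CD44low burn Tregs, Ctla2a (3.60 CPM) was below Ctsl (13.7 CPM) before that division. Ctsw went the other way, from the third place in CD44low sham Tregs (148 CPM per kb) to the ninth in CD44high burn Tregs (31.7 CPM per kb). Together the 10 genes took 0.290% ± 0.0199 of all counts in CD44high sham libraries (SD, n = 4), 0.208% ± 0.00694 in CD44low sham (n = 5), 0.302% ± 0.0269 in CD44high burn (n = 4) and 0.249% ± 0.0244 in CD44low burn libraries (n = 6).

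**Figure D1:**
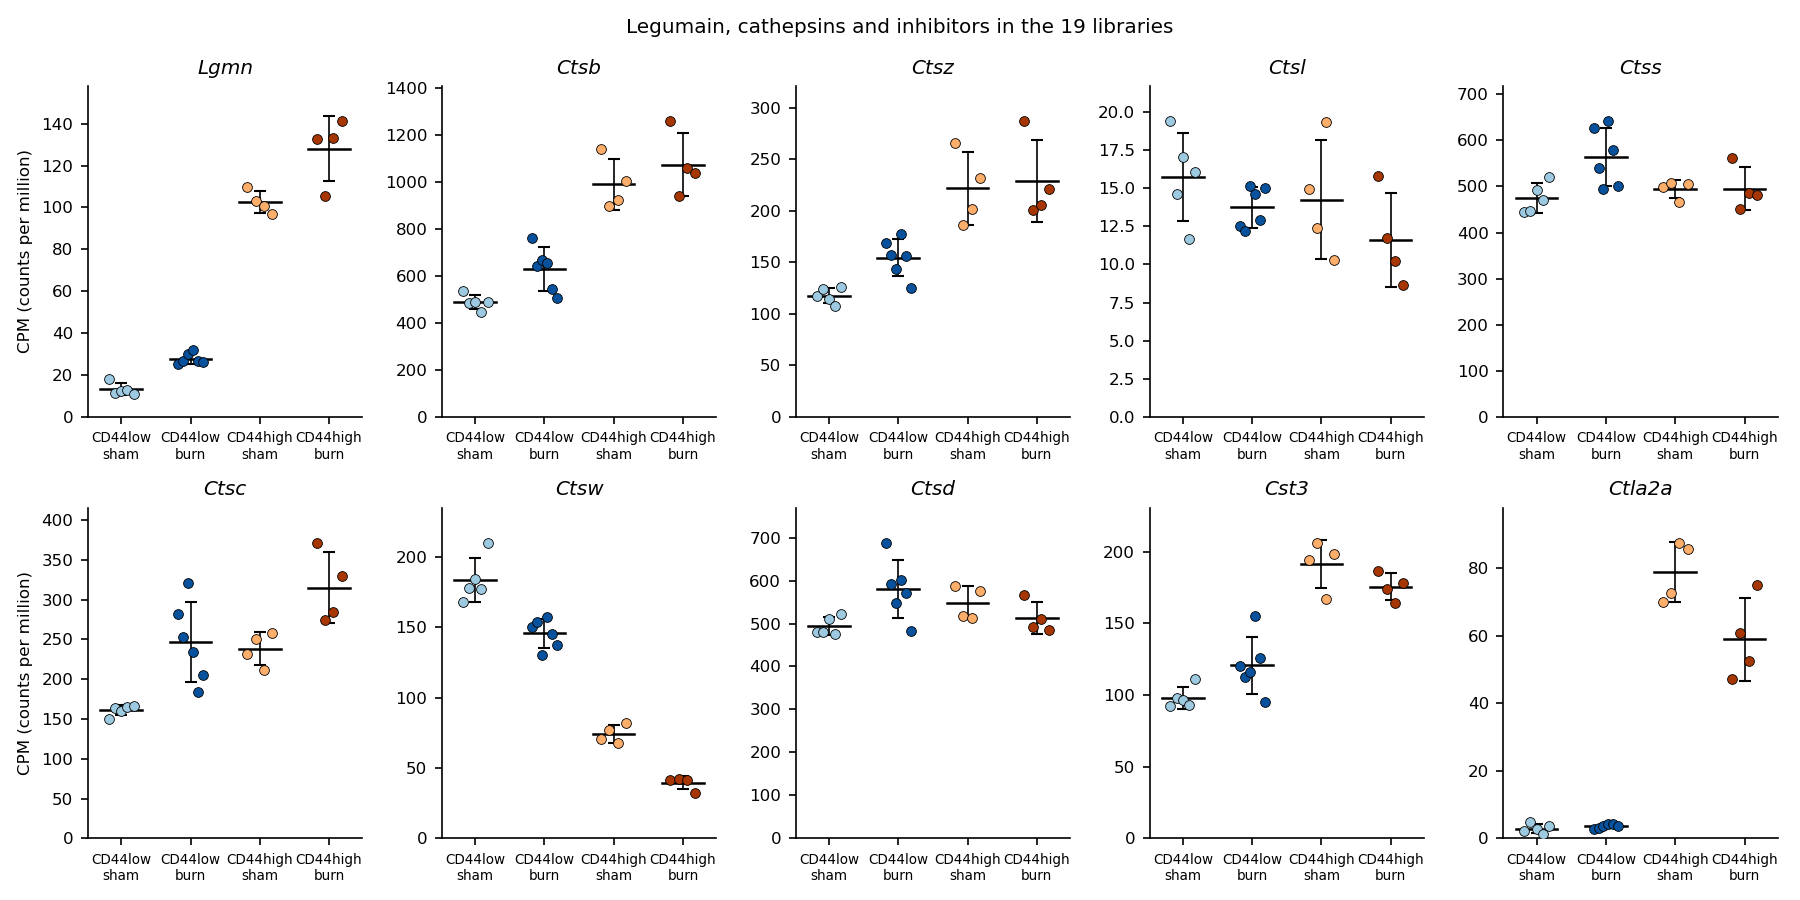
Level of each of the 10 genes in every library, in CPM on linear axes that start at 0. Points are libraries, horizontal bars are group means and whiskers are SD (n = 5, 6, 4 and 4 from left to right). Lgmn and Ctla2a are low in all 11 CD44low libraries and high in all 8 CD44high libraries, and Ctsw falls from left to right through 4 groups that do not overlap.

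The first comparison asked which of these genes separate CD44high from CD44low Tregs in sham mice. 6 of the 10 genes were higher and 1 was lower in CD44high Tregs at an adjusted p under 0.05 (edgeR's quasi-likelihood test, Benjamini-Hochberg adjustment over 11464 genes), where 46.1% of all genes tested were called, 24.7% higher and 21.3% lower. All 7 had no overlap between the libraries of the groups, as had 40.7% of all genes. Ctla2a and Lgmn differed most, Ctsb, Cst3 and Ctsz differed about 2-fold, Ctsc differed less, and Ctsw was the one lower gene. Ctsd, Ctsl and Ctss did not pass the threshold. Counts of called members are set beside the share of all genes, and nothing is read from them, since the same contrast may have guided the choice of genes.

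Lgmn was at 110, 103, 101 and 97.0 CPM in the CD44high sham libraries 2 to 5. In the CD44low sham libraries 1 to 5 it was at 18.0, 11.5, 12.3, 12.8 and 11.0 CPM. Every CD44high library thus lay more than 5 times above every CD44low library, and the fitted difference was 7.80-fold (log2 2.96 ± 0.14 SE, 95% interval 2.68 to 3.25, adjusted p = 2.60e-14). The level in CD44low library 1 stood apart from the other 4, and without it the log2 difference was 3.10.

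RefSeq (GRCm38.p6) lists 2 starts for Lgmn on chromosome 12. A search of 250 bases before and 50 after each start for 6 motifs, on both strands, found CACGTG, the core of the E-box that many lysosomal genes carry, in 3 of the 8 members with an entry. These were Lgmn (at its second start only), Ctsd and Ctsl. The 8 members have 10 windows, and the share over all genes also counts each window singly. Of all 32851 promoters, 7.15% hold the motif. In Lgmn and Ctsd it lies within the longer GTCACGTG, which 2.25% of promoters hold. The stretches are shown because Lgmn differed strongly between the subsets while Ctsd and Ctsl, which share the motif, did not pass the threshold in any of the 5 comparisons. The Lgmn stretch is the 130 bases before the second start (chr12:102439093-102439222, minus strand, within an intron in GENCODE vM21). The Ctsd stretches are 30 bases around its distal (chr7:142388048-142388077, minus strand) and its proximal site (chr7:142387908-142387937, minus strand, in an annotated untranslated region). The Ctsl stretch is also 30 bases (chr13:64370741-64370770, minus strand, likewise untranslated). Capitals mark CACGTG, and all are written 5′ to 3′ on the gene's strand.
Lgmn: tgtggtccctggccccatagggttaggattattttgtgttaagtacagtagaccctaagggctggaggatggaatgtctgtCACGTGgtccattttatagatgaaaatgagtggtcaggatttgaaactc
Ctsd, distal: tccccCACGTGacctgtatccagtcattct
Ctsd, proximal: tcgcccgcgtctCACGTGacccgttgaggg
Ctsl: gcggcgttagaagcCACGTGctgatctaaa
A match of letters is not a measured binding site. The windows of Ctsc, Ctss, Ctsz, Cst3 and the first start of Lgmn held none of the 6 motifs. The others searched were the AP-1 consensus TGAGTCA, the cyclic AMP response element TGACGTCA (in 1.79% of all promoters), the forkhead motif GTAAACA (in 3.65%) and the palindromic gamma-activated sequence of STAT factors (in 0.779%). RefSeq entries for Ctsb and Ctsw were not used here.

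Ctla2a was at 69.9, 72.7, 87.4 and 85.5 CPM in the CD44high sham libraries. The CD44low sham libraries held 14, 30, 19, 9 and 21 reads of it, or 2.19, 4.73, 2.70, 1.29 and 3.55 CPM. The groups did not overlap, and the fitted difference was 27.4-fold (log2 4.78 ± 0.23 SE, 95% interval 4.30 to 5.25, adjusted p = 4.73e-14). Ctla2b, the neighbouring copy of the gene, was 4.43 higher on the log2 scale (adjusted p = 1.05e-07). The longest coding sequences of Ctla2a and Ctla2b in GENCODE vM21 were 79.6% identical over 412 aligned bases, so reads may have been split between the copies and the share of each is uncertain.

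The promoters of the 2 copies are also alike, and both hold TGAGTCA, the consensus of AP-1, which is in 5.20% of all promoters. They are printed because both copies were higher in CD44high Tregs. The Ctla2a stretch ends just before its upstream start (chr13:60936626-60936805, minus strand), and the Ctla2b stretch is the matching one (chr13:60897470-60897641, minus strand), with capitals for TGACTCA, the motif as read on the other strand.
Ctla2a: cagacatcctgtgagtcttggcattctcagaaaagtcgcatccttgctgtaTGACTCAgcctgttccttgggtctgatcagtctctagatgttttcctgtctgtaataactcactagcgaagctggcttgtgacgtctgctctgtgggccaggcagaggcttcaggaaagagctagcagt
Ctla2b: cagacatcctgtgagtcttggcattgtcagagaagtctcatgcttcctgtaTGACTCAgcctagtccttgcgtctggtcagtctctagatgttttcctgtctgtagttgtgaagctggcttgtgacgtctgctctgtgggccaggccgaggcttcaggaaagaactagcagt
The stretches were identical at 160 of 181 aligned positions (88.4%).

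Ctsb, an endopeptidase and exopeptidase of endosomes and lysosomes, was at 1139, 899, 921 and 1003 CPM in the CD44high sham libraries. In the CD44low sham libraries it was at 535, 485, 490, 447 and 487 CPM. The groups did not overlap, with a difference of 2.03-fold (log2 1.02 ± 0.11 SE, adjusted p = 7.78e-08). Ctsz, a carboxypeptidase, was at 222 CPM ± 35.3 (SD, n = 4) against 118 CPM ± 7.60 (n = 5), or 1.88-fold (log2 0.91 ± 0.12 SE, adjusted p = 1.92e-06), again without overlap. Ctsc, the activator of granzymes, was at 232, 251, 212 and 258 CPM in CD44high and at 150, 164, 160, 166 and 167 CPM in CD44low sham libraries. Its difference was the smallest of the 6, at 1.48-fold (log2 0.56 ± 0.13 SE, adjusted p = 0.00105).

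Cst3, the inhibitor, was higher along with these enzymes, at 191 CPM ± 17.1 in CD44high (SD, n = 4) and 98.2 CPM ± 7.73 in CD44low sham libraries (n = 5), a difference of 1.95-fold (log2 0.96 ± 0.11 SE, adjusted p = 2.38e-07). Reads of Cst3 for each read of Ctsb stood at 0.202 ± 0.0202 in CD44low and 0.195 ± 0.0257 in CD44high sham libraries, with overlapping ranges. Reads of Cst3 for each read of Lgmn stood at 7.78 ± 1.83 in CD44low and 1.87 ± 0.186 in CD44high sham libraries. Reads of Ctla2a for each read of Ctsl, a pair of inhibitor and enzyme, stood at 0.185 ± 0.0889 and 5.84 ± 1.74.

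Ctsw, a cathepsin best known from cytotoxic lymphocytes, ran against the others. It was at 70.8, 76.6, 67.4 and 82.2 CPM in the CD44high sham libraries and at 168, 178, 184, 177 and 210 CPM in the CD44low sham libraries. The lowest CD44low library lay about 2 times above the highest CD44high library, and the fitted difference was −1.30 on the log2 scale (± 0.11 SE, 95% interval −1.52 to −1.08, adjusted p = 5.29e-10). Ctss, which cuts the invariant chain, was at 495 CPM ± 19.1 in CD44high and 475 CPM ± 31.9 in CD44low sham libraries, with an interval of the log2 difference from −0.13 to 0.25. Ctsd differed by 0.15 on the log2 scale (interval −0.04 to 0.34). Ctsl, with 73 to 124 reads in the 9 sham libraries, differed by −0.15 (interval −0.58 to 0.28).

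Markers of myeloid cells, which use many of these proteases, moved with the subsets. The summed level of 17 macrophage and monocyte markers was 110 to 186 CPM in CD44high and 40.8 to 65.9 CPM in CD44low sham libraries, and 8 of the 12 that could be tested were higher in CD44high Tregs, where 24.7% of all genes were. 13 dendritic cell markers summed to 128 to 165 CPM against 55.3 to 75.5 CPM, with all 10 tested higher. The MHC class II pathway, not a marker of myeloid cells alone, summed over 7 genes to 1014 to 2143 CPM against 496 to 792 CPM. Cd74 made up most of it (means 1132 and 353 CPM), and H2-DMa was lower in CD44high Tregs (63.6 and 80.0 CPM). B cell markers summed to 102 to 212 CPM against 83.1 to 161 CPM, with 1 of 9 tested higher. CD8 T and NK cell markers summed to 50.6 to 73.1 CPM against 52.2 to 72.6 CPM, with 1 of 6 higher. Most single markers were low. Lyz2 was at 75.2 and 22.5 CPM in CD44high and CD44low sham Tregs and Irf8, which T cells can also express, at 104 and 58.7 CPM. Csf1r was at 11.6 and 3.93 CPM, Cd14 was at 0 in every CD44high sham library and Fcgr1 at 0 in every CD44low sham library. Their part in the results was not tested. In bulk samples, fewer cells of a type and less RNA in each cell cannot be told apart.

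The same comparison in burned mice gave the same 6 genes as higher and Ctsw as lower, where 37.4% of all genes were called, 20.1% higher and 17.2% lower. The libraries of the groups did not overlap for 6 of the 7, as for 24.8% of all genes. Lgmn was at 133, 105, 133 and 141 CPM in the CD44high burn libraries 2 to 5, against a lowest, median and highest level of 25.4, 26.5 and 31.7 CPM in the 6 CD44low burn libraries. The groups did not overlap and differed 4.62-fold (log2 2.21 ± 0.12 SE, adjusted p = 1.13e-12). Ctla2a was at 47.0, 60.9, 52.4 and 75.1 CPM against 2.83 to 4.31 CPM (median 3.65), or 16.4-fold (log2 4.04 ± 0.21 SE, adjusted p = 3.09e-13).

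Ctsw was at 41.4, 42.4, 41.3 and 32.5 CPM in CD44high burn libraries and between 130 and 157 CPM (median 148) in CD44low burn libraries. This was the widest gap for Ctsw in the study, −1.89 on the log2 scale (± 0.11 SE, adjusted p = 1.69e-12). Ctsb, Ctsz and Cst3 were 0.77, 0.56 and 0.54 higher in CD44high Tregs on the log2 scale (adjusted p = 3.52e-06, 0.000530 and 0.000334), and each had no overlap between the groups. Ctsc overlapped between the groups and was 0.35 higher (adjusted p = 0.0271). Without the libraries 1_2, 4_2 and 5_2 its difference was 0.14 (adjusted p = 0.355), and without CD44high burn library 2 it was 0.24 (adjusted p = 0.163). The call was also lost without CD44high burn library 5 or CD44low burn library 4_2 or 5_2 (adjusted p of 0.0721 to 0.0775). Ctsd (−0.18), Ctss (−0.19) and Ctsl (−0.24) did not pass. Of these, Ctsd passed without the 3 doubly numbered libraries (−0.25, adjusted p = 0.0416), and also without CD44high burn library 2 or CD44low burn library 5_2 alone (0.0485 and 0.0383). Ctss passed without CD44high burn library 2 (−0.28, adjusted p = 0.0297). Beside these differences, the dendritic cell sum was 104 to 115 CPM in CD44high and 61.4 to 91.9 CPM in CD44low burn libraries (5 of 10 tested markers higher), and the macrophage and monocyte sum 130 to 322 CPM and 51.7 to 209 CPM (4 of 12 higher), where 20.1% of all genes were higher. Their part was not tested here either.

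**Figure D2:**
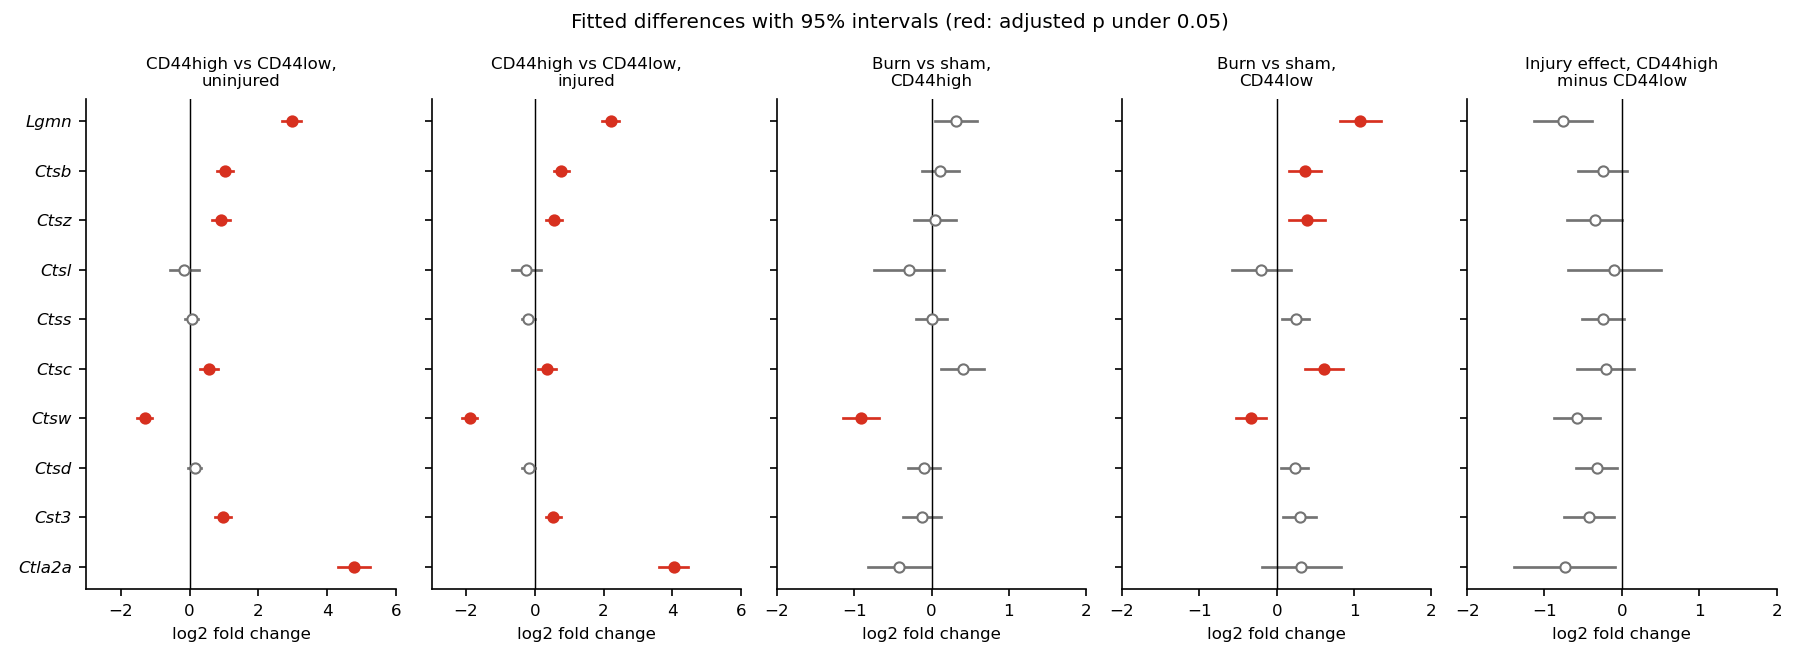
Fitted log2 fold changes of the 10 genes (points) with 95% intervals (lines) in the 5 comparisons, filled red where the adjusted p was under 0.05. The first 2 panels span −3 to 6 and the other 3 span −2 to 2. Ctla2a (4.78 and 4.04) and Lgmn (2.96 and 2.21) lead the first 2 panels, and Lgmn (1.08) leads the rise after injury in CD44low Tregs.

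The effect of injury was then asked within each subset. In CD44low Tregs, 4 genes were higher and 1 was lower after the burn, where 7.60% of all genes tested were called, 4.24% higher and 3.36% lower. Lgmn, Ctsc and Ctsw had no overlap between sham and burn libraries, as had 4.68% of all genes. Lgmn led them, followed by Ctsc, Ctsz and Ctsb, and Ctsw was the lower gene. In CD44high Tregs, 1 gene passed the threshold and it was lower, again Ctsw, where 2.38% of all genes were called, 1.06% higher and 1.33% lower. No member was higher in that comparison at an adjusted p under 0.05, while Lgmn and Ctsc had an unadjusted p of 0.0227 and 0.00697.

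Lgmn in CD44low Tregs rose from 11.0 to 18.0 CPM in the 5 sham libraries to 25.4 to 31.7 CPM in the 6 burn libraries. All burn libraries lay above all sham libraries, by 2.11-fold in the fit (log2 1.08 ± 0.13 SE, 95% interval 0.82 to 1.34, adjusted p = 2.69e-05). By p-value it was the sixth of 11464 genes in this comparison. The burn libraries with 1 number had a mean of 27.4 CPM and those with 2 numbers of 28.1 CPM, so the rise was as large in either set. In CD44high Tregs Lgmn was at 103 CPM ± 5.42 in sham and 128 CPM ± 15.6 in burn libraries (SD, n = 4 each). The groups overlapped through CD44high burn library 3 (105 CPM), and the fitted change was 0.32 (interval 0.05 to 0.59, adjusted p = 0.229).

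Ctsw fell after injury in both subsets. In CD44high Tregs it went from 67.4 to 82.2 CPM in the sham libraries to 32.5 to 42.4 CPM in the burn libraries, with no overlap. The fitted change was −0.91 on the log2 scale (± 0.11 SE, 95% interval −1.14 to −0.68, adjusted p = 4.76e-05), the sixth smallest p of all genes. In CD44low Tregs it went from 168 to 210 CPM to 130 to 157 CPM, also with no overlap, and changed by −0.33 (± 0.09 SE, interval −0.52 to −0.14, adjusted p = 0.0303). That smaller change lost the threshold when any of 7 single CD44low libraries was left out (sham 2, 3, 4 or 5 and burn 1, 2 or 5, adjusted p of 0.0551 to 0.0898), while its direction held. It was also lost with only the libraries 1_2, 4_2 and 5_2 as burn libraries (−0.30, adjusted p = 0.131), with the CD44low libraries fitted alone (0.0585) and without the filter on low counts (0.0707). With 1_2, 4_2 and 5_2 left out the call held (−0.34, adjusted p = 0.0399).

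Ctsc rose in CD44low Tregs from 150 to 167 CPM in sham to 184 to 321 CPM in burn libraries (log2 0.61 ± 0.12 SE, adjusted p = 0.00355). The 3 burn libraries with 1 number stood at 253 to 321 CPM and the 3 with 2 numbers at 184 to 234 CPM, so the sets did not overlap, and both lay above the sham range. With the first set alone the change was 0.82 and with the second alone 0.39 on the log2 scale. In CD44high Tregs Ctsc was at 212 to 258 CPM in sham and 371, 275, 284 and 330 CPM in burn libraries. No burn library reached down to the sham range, yet the adjusted p was 0.132 (log2 0.40 ± 0.14 SE). It was 0.0343 when only the CD44high libraries were fitted and 0.0244 without the libraries 1_2, 4_2 and 5_2. Of all genes tested, 13.3% had no overlap between these groups.

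Ctsb and Ctsz rose less, and their ranges overlapped with sham. In CD44low Tregs Ctsb was at 447 to 535 CPM in sham and 504 to 760 CPM in burn libraries (log2 0.37 ± 0.10 SE, adjusted p = 0.0317). Its burn libraries with 1 number lay at 643 to 760 CPM, above the whole sham range, and those with 2 numbers at 504 to 657 CPM. Fitted with the second set alone, the change was 0.24 (adjusted p = 0.199), and with the first set alone 0.50 (adjusted p = 0.00235). Ctsz was at 107 to 126 CPM in sham and 125 to 177 CPM in burn libraries (log2 0.39 ± 0.11 SE, adjusted p = 0.0357). With the second set alone its change was 0.40 (adjusted p = 0.102), and with the first set alone 0.41 (adjusted p = 0.0290). Both calls were lost without CD44low sham library 4 (adjusted p of 0.0571 and 0.0627), without CD44low burn library 1 (0.0563 and 0.0564) or without CD44low burn library 1_2 (0.0548 and 0.0773), and that of Ctsz also without CD44low sham library 1 or 3 (0.0554 and 0.0559). In CD44high Tregs the changes of Ctsb and Ctsz were 0.12 and 0.04, with intervals of −0.13 to 0.36 and −0.22 to 0.31.

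**Figure D3:**
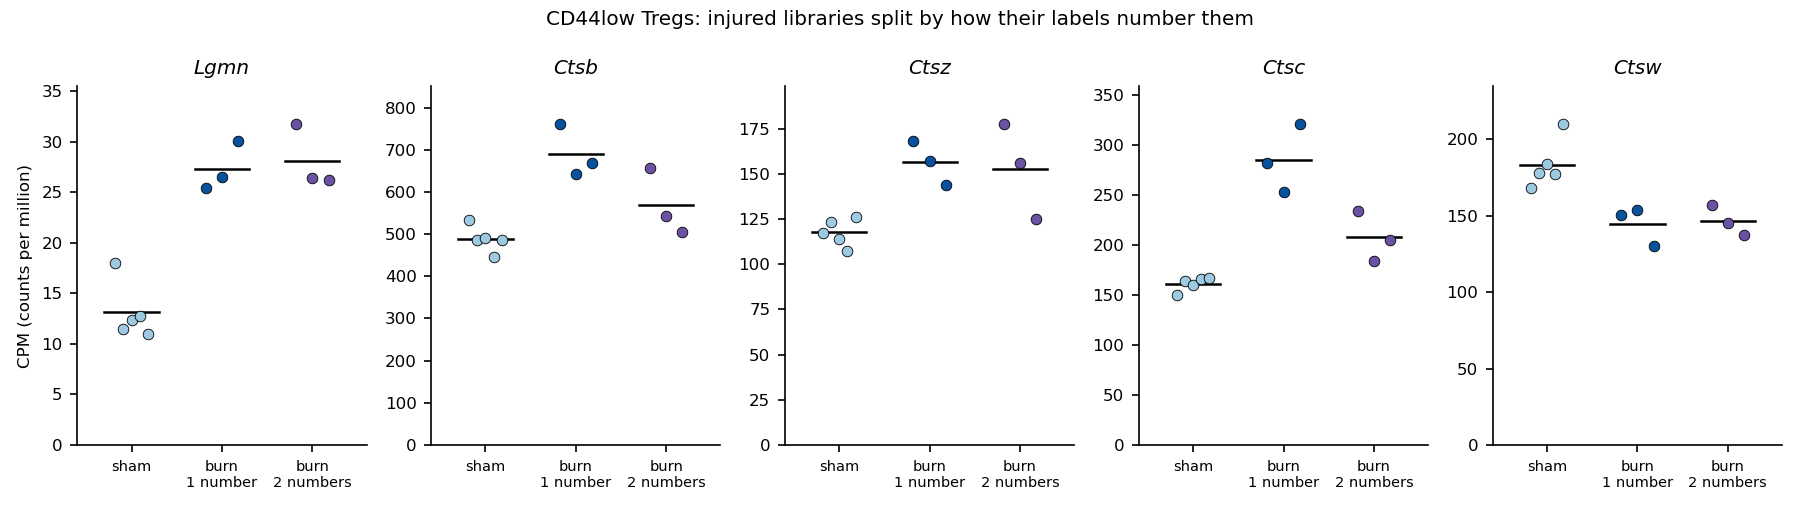
Level of 5 proteases in CD44low Tregs, in CPM, with the 5 sham libraries, the 3 burn libraries whose labels carry 1 number and the 3 whose labels carry 2. Points are libraries and bars are means, without error bars. Lgmn and Ctsw are at like levels in both burn sets, while Ctsc is at 253 to 321 CPM in the first set and 184 to 234 CPM in the second.

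The inhibitors and the remaining enzymes did not pass in either subset. Cst3 changed by 0.30 in CD44low Tregs (interval 0.08 to 0.51, adjusted p = 0.0752) and by −0.12 in CD44high Tregs (interval −0.37 to 0.12). Ctla2a, low in every CD44low library, went from 69.9 to 87.4 CPM to 47.0 to 75.1 CPM in CD44high Tregs, with overlapping ranges and a fitted change of −0.42 (interval −0.83 to −0.02, adjusted p = 0.300). Ctss and Ctsd changed by 0.25 and 0.23 in CD44low Tregs (adjusted p = 0.0709 and 0.0850) and by 0.00 and −0.10 in CD44high Tregs. Cst3, Ctss and Ctsd in CD44low Tregs passed with DESeq2, without CD44high burn library 2 or without CD44low burn library 5_2, which raised the number of called members there to 8 in each case. DESeq2 called 8.64% of all genes there. Ctsd also passed without the libraries 1_2, 4_2 and 5_2 (0.30, adjusted p = 0.0224). Ctsl changed by −0.20 and −0.29, with intervals that span 0.

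Marker levels were also compared after injury, and few markers were called. In CD44low Tregs the macrophage and monocyte sum was 40.8 to 65.9 CPM in sham and 51.7 to 209 CPM in burn libraries. There 3 of 12 tested markers were higher, where 4.24% of all genes were. The MHC class II sum was 496 to 792 CPM and 664 to 1349 CPM, with none of 7 genes called. None of 10 dendritic cell markers was called there. CD44low burn library 1_2 had the lowest macrophage and monocyte sum of the burn libraries, inside the sham range, but an MHC class II sum of 946 CPM, above the sham range and second to library 5. It had the highest level of Lgmn (31.7 CPM), Ctsz (177 CPM), Ctss (641 CPM) and Cst3 (155 CPM). CD44low burn library 5 had the highest sum, 209 CPM, and the highest Ctsc (321 CPM). The neutrophil markers summed to at most 1.69 CPM in sham and 38.4 CPM in burn libraries, with Ly6g and Elane at 0 in all CD44low libraries. In CD44high Tregs the dendritic cell sum was 128 to 165 CPM in sham and 104 to 115 CPM in burn libraries, without overlap, and all 10 tested markers had estimates below 0, of which none was called. The macrophage and monocyte sum there was 110 to 186 CPM in sham and 130 to 322 CPM in burn libraries, with none of 12 markers called. The part of these markers in the effects of injury was not tested.

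Whether injury acted differently in the subsets was tested by the interaction. No member passed at an adjusted p under 0.05 in edgeR, where 0.645% of all genes tested did (0.192% with a higher and 0.454% with a lower change in CD44high Tregs), and 5 had an unadjusted p under 0.05. Ctsz, with an unadjusted p of 0.0529, ranked 1306 of 11464 genes by p. DESeq2 called 2 members, Lgmn and Ctsw, and 1.27% of all genes. All 10 estimates were below 0, with a median of −0.34 against −0.03 over all genes, of which 5365 had an estimate above 0. Nothing is read from these counts, since this contrast may also have guided the choice of genes. For Lgmn the change in CD44high was 0.76 lower than in CD44low Tregs on the log2 scale (interval −1.14 to −0.38, adjusted p = 0.0528). For Ctsw it was 0.58 lower (interval −0.88 to −0.28, adjusted p = 0.0610). Either gene passed with DESeq2 (adjusted p = 0.00476 and 0.00382), with RLE size factors (0.0442 for both) and without the libraries 1_2, 4_2 and 5_2 (0.0437 and 0.0461). The interaction of Lgmn was −0.90 (adjusted p = 0.00721) without CD44low sham library 1. Leaving out CD44high burn library 2 or CD44low burn library 5_2 also brought both genes past the threshold (0.0482 and 0.0491, and 0.0498 and 0.0477), and leaving out CD44low sham library 5 or CD44low burn library 5 did so for Ctsw (0.0429 and 0.0424).

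Over the 10 genes the median log2 difference was 0.74 between the subsets in sham mice and 0.45 in burned mice, against 0.01 and 0.00 over all genes tested. It was 0.31 after injury in CD44low Tregs and −0.05 in CD44high Tregs, against 0.01 and −0.02. The comparisons share groups, so these medians are not independent of each other. Ordered by mean, 3 levels of Lgmn were set apart by gaps without overlap, from CD44low sham over CD44low burn to the CD44high groups, whose ranges met. For Ctsw all 4 groups stood apart. For Ctsb, Ctsz, Cst3 and Ctla2a the order had 1 gap, between the subsets, and neighbours within a subset overlapped. For Ctsc the only gap between neighbours set CD44low sham apart from the other 3 groups. The CD44high sham and burn groups, not neighbours in its order, did not overlap either. For Ctsd, Ctsl and Ctss no neighbours were apart.

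Other cathepsins and relatives were read from a separate list of 19 genes, of which 6 passed the filter. In sham mice 3 were higher in CD44high Tregs and none lower, where 46.1% of all genes were called, 24.7% higher and 21.3% lower. The counts of the lists that follow for sham mice stand beside the same shares. Ctsa, the protective protein of lysosomal galactosidase, was 1.60 higher on the log2 scale (adjusted p = 6.06e-11). Ctsh, an aminopeptidase, was 2.05 higher (adjusted p = 0.000101) and Ctsf 1.88 higher (adjusted p = 0.00275). After injury Ctse, an aspartic endosomal protease, was lower in both subsets, by −0.61 in CD44high (adjusted p = 0.0369) and −0.63 in CD44low Tregs (adjusted p = 0.00745). In CD44low Tregs Ctsa was also 0.43 higher (adjusted p = 0.0156) and Ctso 0.63 lower (log2 −0.63, adjusted p = 0.0169).

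Of 48 further protease inhibitors 19 could be tested, and 8 were higher and 4 lower in CD44high than in CD44low Tregs of sham mice (63.2% called, against 46.1% of all genes). Beside Ctla2b, Timp2, an inhibitor of metalloproteinases, was 1.06 higher (adjusted p = 9.63e-09) and Serpina3g 1.35 higher (adjusted p = 7.47e-08). Serpina3g belongs to a cluster of near-identical serpins, so its value is uncertain. Itih5 was 2.29 lower (log2 −2.29, adjusted p = 3.63e-11), and Serpinb9, which inhibits granzyme B, and Cast, the inhibitor of calpains, differed by −0.53 and −0.35 (adjusted p = 0.00872 and 0.0248). After injury 1 inhibitor was called in each subset, where 2.38% of all genes were in CD44high and 7.60% in CD44low Tregs. These were Serpina3g in CD44high Tregs (−0.67, adjusted p = 0.0182) and Cst7, cystatin F, in CD44low Tregs (0.47, adjusted p = 0.0470).

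These lists were written by hand for this work, also with earlier results known, and no test was made of any list as a whole. Among 63 tested hydrolases and membrane proteins of the lysosome, 32 were higher and 9 lower in CD44high Tregs of sham mice (65.1% called, against 46.1% of all genes). Their median log2 difference was 0.37 against 0.01 over all genes. Gm2a, the activator of ganglioside breakdown, was 2.04 higher (adjusted p = 6.66e-14), Scpep1, a serine carboxypeptidase, 3.58 higher (adjusted p = 3.06e-13) and Grn, progranulin, 2.10 higher (adjusted p = 1.49e-09). Igf2r, a receptor that sorts hydrolases to lysosomes, was lower by −2.46 (adjusted p = 1.84e-13), Acp5 by −1.28 (adjusted p = 1.08e-08) and Lamp1 by −0.77 (adjusted p = 7.24e-07). The subunits of the proton pump showed 9 higher and none lower of 18 tested, led by Atp6v0d2 (1.59, adjusted p = 0.000343), Atp6v0a1 (0.92, adjusted p = 0.000599) and Atp6v1a (0.64, adjusted p = 0.00176).

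Regulators of the lysosome were mixed, with 6 higher and 4 lower of 19 (52.6% called, against 46.1% of all genes) and a median of −0.02. Tfeb, the transcription factor that binds the CACGTG element of lysosomal genes, was 0.96 higher in CD44high Tregs of sham mice (adjusted p = 2.97e-07). Rragb and Lamtor4 were higher by 0.91 and 0.73 (adjusted p = 0.000311 and 0.000477), and Rragd, Fnip1 and Mtor lower, at −1.24, −0.99 and −1.11 (adjusted p = 0.000444, 0.00139 and 0.00463). Of 10 tested genes of cytotoxic granules 6 were higher and none lower (60.0% called). Gzmb, whose propeptide cathepsin C removes, was 6.77 higher (adjusted p = 4.73e-14), Gzmc 2.58 (adjusted p = 1.19e-07) and Srgn 1.07 (adjusted p = 2.99e-07). Granzyme genes lie in clusters of close copies, so the share of each is uncertain.

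**Figure D4:**
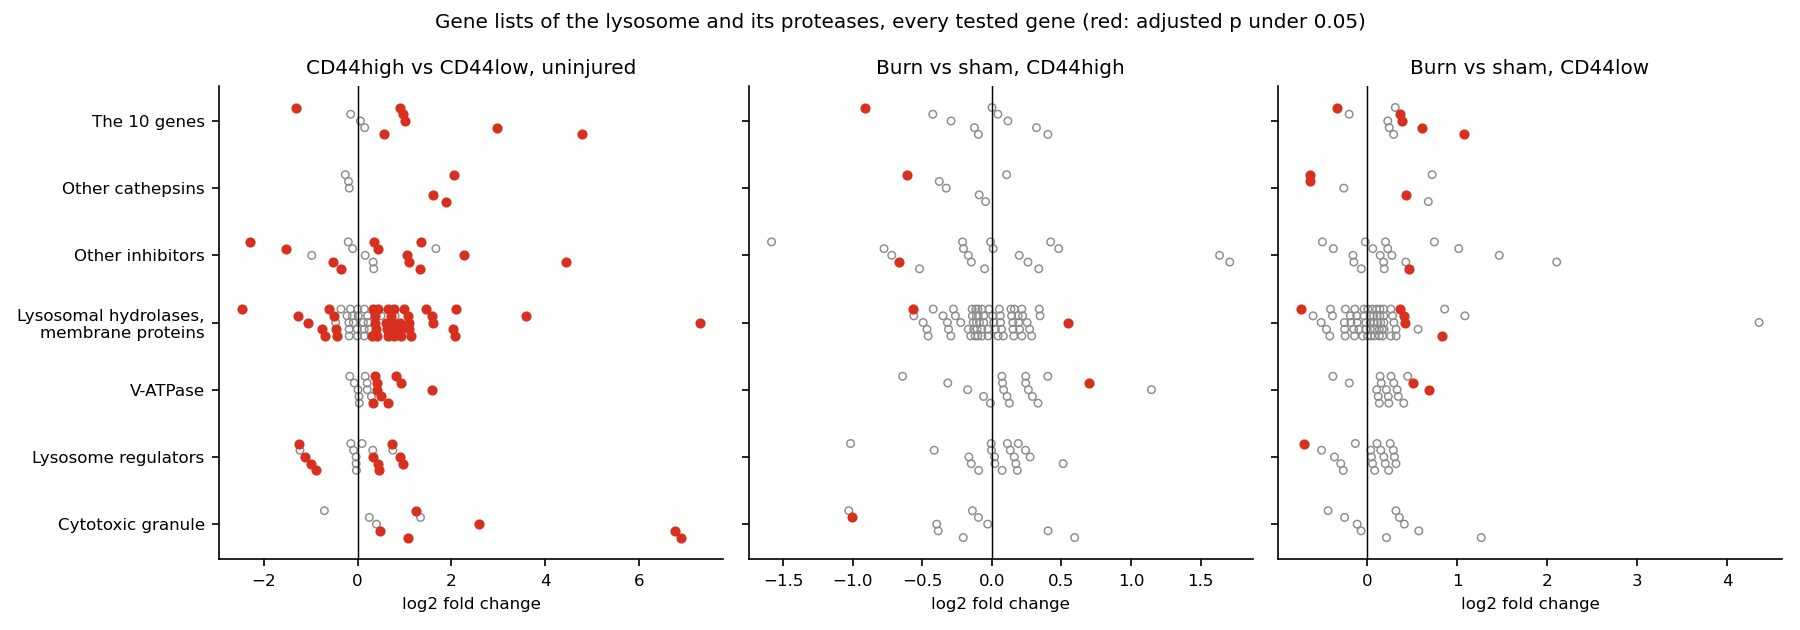
Fitted log2 fold changes of every tested gene of the 10 members and 6 other lists, with red points where the adjusted p was under 0.05 and open points otherwise, on an axis of its own in each of 3 comparisons. Between the subsets in sham mice, red points lie on both sides of 0 for hydrolases and membrane proteins (32 above, 9 below) and for regulators (6 above, 4 below), where 2837 of all genes are called above and 2443 below, and few genes of any list are red after injury.

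After injury few genes of the hydrolase, pump, regulator and granule lists were called, where 2.38% of all genes were in CD44high and 7.60% in CD44low Tregs. In CD44high Tregs Gm2a was lower (−0.57, adjusted p = 0.00293) and Lipa, the acid lipase, higher (0.55, adjusted p = 0.0105), while Prf1, perforin, was lower, at 0.499 times the sham level (adjusted p = 0.0111). In CD44low Tregs Scpep1 and Acp5 were higher, by 0.84 and 0.41 (adjusted p = 0.00783 and 0.0234), and Psap, the saposin precursor, and Rraga lower, at −0.73 and −0.70 (adjusted p = 0.0177 and 0.0157). The pump subunit Atp6v0b was higher in both subsets, by 0.70 in CD44high (adjusted p = 0.00795) and 0.69 in CD44low Tregs (adjusted p = 0.00249), and Atp6v1g1 in CD44low Tregs (0.51, adjusted p = 0.0438). The interaction was called for Prf1 (−1.42, adjusted p = 0.0155), Scpep1 (−1.19, adjusted p = 0.0231) and Gm2a (−0.60, adjusted p = 0.0377), all lower in CD44high Tregs relative to CD44low Tregs.

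Likeness was measured by Pearson's r of log2 CPM over the 19 libraries, as a description, since the libraries share their groups. Lgmn was most like Fut7 and Icos, both with r = 0.98. Ctla2a was most like Cks1b and Tff1 (both 0.99), Ctsb like Prkar1a (0.98) and Glmp (0.97), and Ctsz like Capzb and Tnfrsf18 (both 0.97). For Cst3 the nearest genes were H2afx and H2afv (both 0.96), for Ctsw Mmp11 and Impdh1 (both 0.96), and for Ctsc Hspa5 (0.94) and Dok2 (0.92). Ctss (Saraf, 0.89, and Rae1, 0.88), Ctsd (Cnp, 0.81, and Saraf, 0.80) and Ctsl (Wwc2, 0.75, and Caprin2, 0.72) had less close neighbours.

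With the group means removed, mostly other genes came nearest. Each named gene is the nearest out of all genes tested over few libraries, so a high r can come from that choice alone. Lgmn was then nearest to H2-DMb1 (0.83), a chaperone of MHC class II loading at 2.04 to 5.27 CPM in group mean, and Dnlz (0.82). Ctsb was nearest to Sdha (0.92) and Bin1 (0.90), Ctsc to Me2 (0.91) and the pump subunit Atp6v1b2 (0.89), Ctsd to Selplg (0.90) and Smpdl3a (0.87), and Ctss to Ptprcap (0.89) and Rac2 (0.87). For Ctsz they were Ephx1 (0.89) and Vps72 (0.87), for Cst3 Gpx1 (0.90) and Atxn7l3b (0.88), for Ctla2a Samd8 (0.82) and Jdp2 (0.78), for Ctsw Adi1 (0.78) and Mmp11 (0.72), and for Ctsl Wwc2 (0.76) and Brf1 (0.70). Among the members themselves, Ctsb, Ctsd and Ctsz varied together within groups, with r of 0.78 to 0.80 for each pair. Ctss had r of 0.77 to Ctsd, 0.74 to Cst3 and 0.67 to Ctsz, but 0.47 to Ctsb. Lgmn had no such partner, with r between −0.48 (Ctsw) and 0.36 (Ctsb).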

How the data were processed

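Per the labels and the study's methods, RNA from each sorted sample was amplified to cDNA with SMART-Seq v4, made into libraries with a Swift 2S kit and sequenced, and the authors aligned the reads with STAR within the VIPER workflow. The submitters' processing notes name bcl2fastq 2.18, STAR 2.5 and the builds mm9 and mm10, without saying which build gave the table, and do not name the annotation. The deposited values were counts of reads per gene symbol, whole and not normalized.

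From these counts, genes were kept by filterByExpr (minimum count 10), scaled by TMM and fitted in edgeR 4.0.16 (R 4.3.3) with a mean for each of the 4 groups over 19 libraries. The 5 comparisons used the quasi-likelihood test, 2-sided, with Benjamini-Hochberg adjustment over all 11464 genes and a threshold of 0.05. The interaction was the injury effect in CD44high minus that in CD44low Tregs. CPM used TMM-scaled totals, and log2 CPM a prior count of 2. The study itself used DESeq2, which was run here as an alternative (1.42.0). Other alternatives were RLE size factors, no filter, fits on the compared groups alone, a replicate block, 2 rules with a 2-fold minimum, other uses of the libraries 1_2, 4_2 and 5_2, and each library left out in turn. The scripts were tested on simulated counts.

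All 10 members were described in every comparison. From each other list the called genes of smallest p were named, up to 3 in each direction between the subsets in sham mice and up to 2 for injury and the interaction. Likeness named the 2 nearest genes by each measure. The members and lists were chosen with earlier results of these data known. Lengths came from GENCODE vM21 and promoters from RefSeq (GRCm38.p6). No pair of libraries of a group was alike within sampling noise. Counts set the precision, and genes with few reads, such as Ctla2a in CD44low and Ctsl in all libraries, have wide intervals.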

Additional observations from a re-analysis of the deposited data

Results flagged for a closer look

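For each of the 10 genes and 4 groups, the highest and the lowest library was compared with the rest of its group by Dixon's criterion, and 3 of the 40 groups held a library that stood apart. Chance gives about 1 in 20 groups. Lgmn was at 18.0 CPM in CD44low sham library 1 and at 11.0 to 12.8 CPM in the other 4. Ctsw was at 32.5 CPM in CD44high burn library 5 and at 41.3 to 42.4 CPM in the other 3. Cst3 was at 111 CPM in CD44low sham library 5 and at 92.4 to 97.7 CPM in the other 4.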

How the results depend on the processing

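Of the members' fold changes under alternatives that kept all or sets of libraries, 436 kept their direction and side of the threshold, 35 lost and 15 gained the threshold and 4 changed sign. With single libraries left out the numbers were 906, 19, 19 and 6. The first tally includes the 2 rules with a 2-fold minimum. These rules reuse the main fit, so they could not change a sign or add a call. Requiring a 2-fold change beside the adjusted p left 4, 3, 0 and 1 called members (CD44high against CD44low in sham and in burned mice, injury in CD44high and in CD44low Tregs) and 34, 27, 1 and 0 genes of the other 6 lists. Of all genes, 20.1%, 14.5%, 0.750% and 1.25% were left. An unadjusted p under 1e-06 with 2-fold left 4, 3, 0 and 1 members and 20, 16, 0, 0 and, for the interaction, 0 list genes. Of all 11464 genes, that rule left 951, 688, 17, 14 and, for the interaction, 10. For injury in CD44high Tregs, 2 members were called against 1 with the compared groups alone, without the libraries 1_2, 4_2 and 5_2, with only those, or with numbers 1 and 5 summed over both sets. The list genes there went from 6 to 12, 14 and 10 (compared groups, without the 3 libraries, summed). The share of all genes called went from 2.38% to 5.41%, 5.01% and 4.15% in the same order, and to 3.05% with only the 3 libraries. For injury in CD44low Tregs, called members went from 5 to 8 (DESeq2), 3 (compared groups) and 2 (only the libraries 1_2, 4_2 and 5_2), and list genes from 12 to 23 (DESeq2) and 27 (without the 3 libraries). The share of all genes called there was 7.60% in the main fit and 8.64% with DESeq2. It was 4.34% with the compared groups, 3.85% with only the 3 libraries and 15.1% without them. For the interaction, 2 members were called with DESeq2, with RLE and without the 3 libraries, and list genes went from 3 to 5 (DESeq2) and 1 (only the 3 libraries). Of all genes, 0.645% were called in the main fit, 1.27% with DESeq2 and 0.759% with RLE. Without the 3 libraries it was 2.71% and with only those 1.18%. The cause was not tested.

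The labels give no meaning to shared numbers. Of the 8 same-numbered pairs of CD44high and CD44low libraries, 4 had correlations of deviations of 0.10 to 0.17 and 4 of −0.05 to 0.06. Same-numbered sham and burn libraries of a subset, which come from different mice, had −0.12 to 0.02. Pairing of the subsets was thus not shown for every number, though some pairs may be related. A replicate block on the number also joins sham and burn libraries. With it, 2 members and 7 list genes were called for injury in CD44low Tregs, where 3.84% of all genes were. Ctsb, Ctsz and Ctsw lost the threshold there (adjusted p = 0.0610, 0.0625 and 0.0849).

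With single libraries left out, members called for injury in CD44low Tregs ranged from 2 (without sham 4 or burn 1) to 8 (without CD44high burn 2 or CD44low burn 5_2), with 3 without sham 3 or burn 1_2, and for the interaction from 0 to 2 (2 without CD44high burn 2 or CD44low burn 5_2). List genes ranged from 3 (without CD44high sham 2) to 8 for injury in CD44high Tregs, from 7 (without burn 1_2) to 26 (without burn 5_2) in CD44low Tregs and from 1 (without CD44high sham 3 or burn 5) to 4 for the interaction. Shares over all genes were not counted for these fits, so nothing is read from the counts. Values that changed sign lay near 0. The interaction of Ctsc was 0.025 with only the libraries 1_2, 4_2 and 5_2, and that of Ctsl ranged from −0.29 to 0.088 with a library left out (above 0 without CD44high sham 4 or CD44high burn 5). For injury in CD44high Tregs, Ctss was at −0.0016 with DESeq2, −0.0022 with RLE and −0.00018 with the replicate block, and ranged from −0.054 to 0.046 with a library left out (below 0 without CD44high sham 4 or burn 2). Ctsz ranged there from −0.073 to 0.157 (below 0 without CD44high sham 3 or burn 2).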
